A study of Capra hircus with 90 samples.

Results

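MAN2B1, DHX30 and TNFAIP1 are 3 of the 25144 goat genes in the count table, followed here over 90 brainstem libraries. They were taken by name for a lower level in the nucleus of the solitary tract (NTS) after 7 d of CO2, so every value of that contrast describes the choice and tests nothing. Each symbol was tied to an Ensembl row by an equal mean abundance in a repeat of the authors' fit: MAN2B1 is ENSCHIG00000001921, DHX30 is ENSCHIG00000017619 and TNFAIP1 is ENSCHIG00000015789. A lower level at 7 d stands in the deposited tables for 2 of the 3. MAN2B1 and DHX30 are lower entries of the authors' deposited table of 7 d NTS genes. TNFAIP1 is not in it, and is a higher entry of the authors' deposited table of 24 h NTS genes. For that reason no NTS comparison is tested for these genes, and tests are confined to the other 2 sites.

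The animals were adult outbred female goats kept in room air or in 6% inspired CO2. The 5 exposures were 24 h of room air, 3 h of CO2, 24 h of CO2, 7 d of room air and 7 d of CO2, with 6 goats each. Punches of frozen brainstem were taken at 3 levels rostral to the obex, from 0 to 2 mm for the NTS, from 2 to 4 mm for the ventral respiratory column (VRC) and from 8 to 10 mm for the retrotrapezoid nucleus (RTN). This gives 15 groups of 6 libraries. The goats of 3 h were compared with the room-air goats of 24 h, as the design sets out. Both 7 d groups were extracted and sequenced in a second batch, so a difference between 24 h and 7 d goats cannot be told apart from batch. A punch holds all the cell types of its region, and fewer cells of a type cannot be told apart from less RNA per cell. The defining marker genes of the 3 nuclei carry no symbol in the deposited tables, so the labelled sites were not checked against them.

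The 3 genes work in different compartments of the cell. MAN2B1 encodes the lysosomal alpha-mannosidase, an acid hydrolase that trims mannose from the sugar chains of glycoproteins under breakdown, and its inherited loss causes alpha-mannosidosis, a storage disease that affects neurons. DHX30 encodes an RNA helicase of the DEAH-box family that takes part in mitochondrial RNA handling and ribosome assembly, and also has cytoplasmic roles in translation. TNFAIP1 encodes a BTB-domain adaptor that brings substrates such as the small GTPase RhoA to a cullin-3 ubiquitin ligase, and was named for its induction by tumour necrosis factor. The NTS is the first relay of chemoreceptor and lung afferents, the VRC drives breathing rhythm, and the RTN senses CO2.

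All 3 genes were well covered. Library totals ran from 5.46 to 36.8 M (mega) counts with a median of 23.3 M. Counts per library ran from 523 to 3962 for MAN2B1 (median 1856.5), from 827 to 6294 for DHX30 (median 3435) and from 114 to 911 for TNFAIP1 (median 470.5). Counting error alone at those medians is a coefficient of variation of 2.32%, 1.71% and 4.61%. The variation between goats of a group was 10.8 to 21.1% for MAN2B1, 5.37 to 18.9% for DHX30 and 4.21 to 19.9% for TNFAIP1, so in most groups it was spread between libraries, not depth, that limited precision. Levels below are CPM (counts per M counts of the library, scaled by TMM factors), which allow a gene to be compared between libraries but not with another gene. In the RefSeq gene table of assembly ARS1.2, 1 long non-coding RNA gene, LOC108638258, overlaps TNFAIP1, and 0 genes overlap MAN2B1 or DHX30. Whether the counting used strand is not stated in the sources used here, so reads of that transcript may be counted with TNFAIP1.

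The starting contrast was 7 d of CO2 against 7 d of room air in the NTS. MAN2B1, the lysosomal enzyme, lay between 97.2 and 143 CPM in room air (median 118) and between 60.4 and 84.4 CPM after CO2 (median 65.3). All 6 CO2 libraries were below all 6 room-air libraries. The means were 119 ± 17.9 and 68.4 ± 8.44 CPM (SD, n = 6 each), a log2 change of -0.80 (SE 0.11). DHX30, the helicase, lay between 162 and 211 CPM in room air (median 194) and between 119 and 147 CPM after CO2 (median 128), again with no overlap. Its means were 189.9 ± 20.5 and 129.8 ± 11.1 CPM, a log2 change of -0.55 (SE 0.09). TNFAIP1, the ligase adaptor, lay between 18.6 and 29.1 CPM in room air (median 23.3) and between 17.6 and 22.9 CPM after CO2 (median 19.4). These groups overlapped, and the means of 23.5 ± 3.67 and 19.5 ± 1.95 CPM gave a log2 change of -0.27 (SE 0.12). Groups failed to overlap with CO2 lower in 36 of 15311 genes, or 0.235%, and nothing is read from that share for genes chosen on this contrast. The quasi-likelihood fit of edgeR to the 7 d NTS libraries alone called 1 gene (0.00653%), with 1228 at an unadjusted p under 0.05. This count is background, and no call is read from it for the 3 genes.

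The 7 d NTS entries of the authors' deposited table number 22, 0.124% of the 17730 genes in a repeat of their fit, 8 of them lower (0.0451%) and 14 higher. In it MAN2B1 has a log2 change of -0.80 (adjusted p = 5.13e-06 in the authors' deposited table) and DHX30 one of -0.55 (adjusted p = 0.00120 in the authors' deposited table). DHX30 is thus close to the smallest change listed, since 0.50 is the least size among all entries of the authors' deposited tables. POMK, with -0.54, has the smallest lower value there, and EFCAB12 is the entry nearest to the limit of 0.05 (adjusted p = 0.0487 in the authors' deposited table). TNFAIP1 lies outside that size limit: a repeat of the deposited fit gave it -0.27 at 7 d. At 24 h the authors' deposited table gives TNFAIP1 a log2 change of 0.53 (adjusted p = 0.00974), as 1 of 25 higher NTS entries (0.141% of the genes fitted). The quasi-likelihood fit of edgeR to the NTS libraries of the first batch called 0 of 15605 genes at 24 h (0%), with 1591 at an unadjusted p under 0.05.

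**Figure D1:**
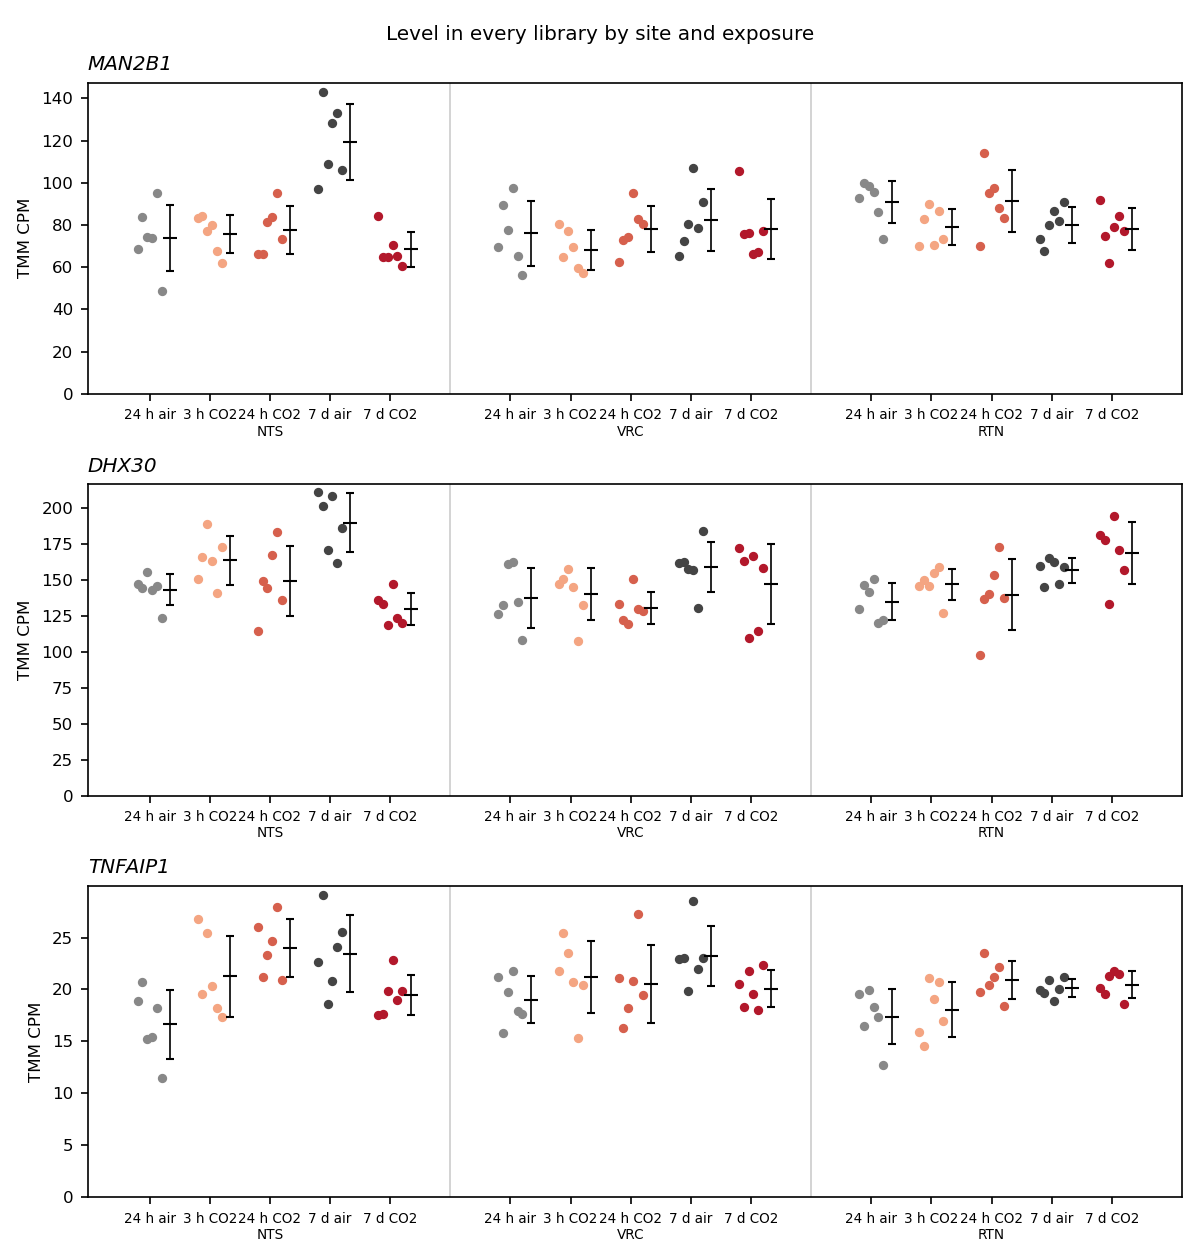
Level of each gene in every library, in TMM-scaled CPM on axes that start at 0, by site and exposure; points are libraries of 6 goats per group, and bars are the group mean ± SD. In the NTS the 7 d room-air libraries of MAN2B1 and DHX30 sit above all 7 d CO2 libraries, while for TNFAIP1 the NTS groups of 24 h of CO2 and 7 d of room air are the highest of the 15 means.

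A gene chosen for a gap between the 7 d NTS groups is more likely to have such a group at an end of its order. The shorter exposures are also of the other batch, so ranks of these groups are description only. Over all 15 groups, the gap at 7 d in the NTS came with a high room-air mean for MAN2B1. Its mean of 119 CPM there was the highest of the 15, and the next, 91.4 ± 14.9 CPM in the RTN after 24 h of CO2, was lower by more than the larger SD. The means of the 13 groups outside the 7 d NTS ran from 68.2 CPM in the VRC after 3 h to 91.4 CPM, and the 7 d CO2 mean of 68.4 CPM lay within them, at rank 14. Of the 14 steps between neighbours in the order of MAN2B1 means, 1 exceeded the larger SD of the pair. With RLE in place of TMM factors the room-air group kept the first rank, and the CO2 group moved to the last.

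DHX30, chosen on the same contrast, had both ends of its order in the 7 d NTS. The room-air mean of 189.9 CPM was the highest of the 15 and the CO2 mean of 129.8 CPM the lowest, with the same ranks under RLE factors. The next mean below the room-air group was that of the RTN after 7 d of CO2 (169 ± 21.6 CPM) and the next above the CO2 group that of the VRC after 24 h of CO2 (130.5 ± 11.1 CPM). For DHX30 0 of the 14 steps between neighbours exceeded the larger SD. The 3 highest DHX30 means after the 7 d NTS room-air group were the RTN after 7 d of CO2, the NTS after 3 h of CO2 (164 ± 16.9 CPM) and the VRC in 7 d room air (159 ± 17.1 CPM).

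TNFAIP1 had another order, with both ends in the 24 h NTS contrast through which it carries its symbol. Its highest mean was that of the NTS after 24 h of CO2 (24.01 ± 2.77 CPM) and its lowest that of the NTS in 24 h room air (16.6 ± 3.30 CPM), followed from the top by 7 d room air in the NTS (23.5 CPM) and in the VRC (23.2 ± 2.87 CPM). The 7 d CO2 group of the NTS was at rank 11. For TNFAIP1 too 0 of the 14 steps exceeded the larger SD.

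The next question was whether the shorter exposures moved these genes in the NTS. MAN2B1 averaged 74.04 ± 15.6 CPM in 24 h room air, 75.7 ± 9.10 CPM after 3 h and 77.6 ± 11.3 CPM after 24 h of CO2, which are log2 differences of 0.05 (SE 0.13) and 0.08 (SE 0.13) from room air. DHX30 averaged 143 ± 10.7, 164 ± 16.9 and 149 ± 24.2 CPM in the same order, with log2 differences of 0.21 (SE 0.10) and 0.07 (SE 0.10). The groups overlapped for both genes at both times. The small values were positive, but those of MAN2B1 at both times and of DHX30 at 24 h were below their SE. The sign at 7 d is that of the contrast that chose the genes, in goats of the other batch, so no difference in sign is read.

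TNFAIP1 was the gene with a gap in the NTS at 24 h. Its libraries lay between 11.4 and 20.7 CPM in room air (median 16.8), between 17.3 and 26.8 CPM after 3 h (median 19.9) and between 20.9 and 27.9 CPM after 24 h of CO2 (median 24.02). The 24 h CO2 group stood just above the room-air group without overlap, whereas the 3 h group overlapped with both. Groups failed to overlap with CO2 higher in 0.346% of the 15605 genes, a share that is given only as background, because TNFAIP1 carries its symbol through this very contrast. The log2 difference from room air was 0.36 (SE 0.14) at 3 h, and by 24 h it was 0.54 (SE 0.14). Both differences rest on the same room-air libraries, and the difference between 24 h and 3 h of CO2 was 0.18 (SE 0.14).

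Among the first-batch NTS libraries, 5 had the opposite sign from the rest on the first principal component (28.9% of the variance). They were room air 5, room air 6, both goats 5 and 6 of the 3 h exposure, and CO2 24 h goat 5. Without them TNFAIP1 differed by 0.39 at 3 h and 0.42 at 24 h, MAN2B1 by 0.12 and -0.01, and DHX30 by 0.19 and -0.05. The sign at 24 h thus changed for MAN2B1 and DHX30, whose values were near 0 either way, and not for TNFAIP1. The difference between 24 h and 3 h without them was 0.02 for TNFAIP1, -0.14 for MAN2B1 and -0.23 for DHX30. With all libraries that of TNFAIP1 was 0.18 (SE 0.14), and the part of the 5 libraries in it was not tested.

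**Figure D2:**
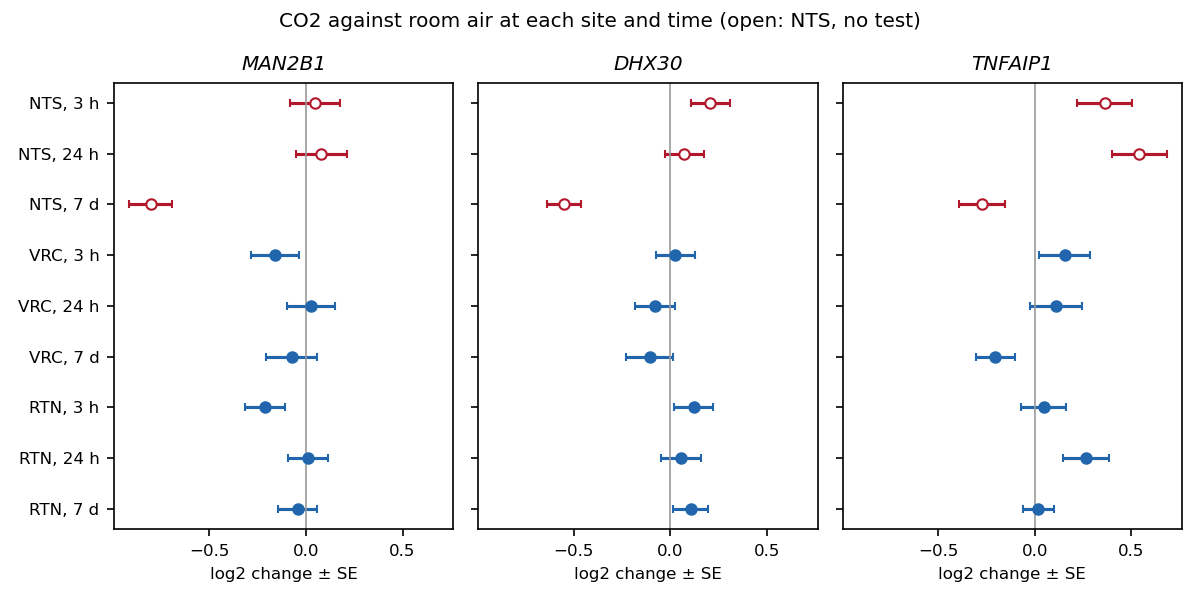
Log2 change of CO2 against room air ± SE for each gene at each site and time, on 1 shared axis; open red points are the NTS, where the genes were chosen and no test was made, and filled blue points are the VRC and RTN, where each was tested. The NTS points of MAN2B1 and DHX30 at 7 d lie at -0.80 and -0.55, the tested points all lie between -0.21 and 0.26, and TNFAIP1 in the NTS goes from 0.54 at 24 h to -0.27 at 7 d.

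The VRC and RTN of the same goats give a readout that did not choose the genes. After 7 d of CO2, 0 of the 3 genes passed an adjusted p of 0.05 at either site by edgeR's quasi-likelihood test, and neither did any of all 15179 genes in the VRC or 15326 in the RTN (0% called at both). At an unadjusted p under 0.05 there were 996 and 499 genes at the 2 sites, none of them of this set, and DESeq2 called 2 genes at each.

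MAN2B1 in the VRC lay between 65.2 and 107 CPM in 7 d room air (median 79.5) and between 66.5 and 105 CPM after 7 d of CO2 (median 76.1). The ranges coincided almost fully, with means of 82.4 ± 14.8 and 78.1 ± 14.2 CPM and a log2 change of -0.07 (SE 0.13, edgeR, adjusted p = 0.918). In the RTN the means were 80.1 ± 8.62 and 78.2 ± 10.02 CPM, a log2 change of -0.04 (SE 0.10, edgeR, adjusted p = 0.999). How far these values differ from the -0.80 in the NTS was not tested, because the NTS side of it is the contrast that chose the gene.

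DHX30 in the VRC lay between 131 and 184 CPM in 7 d room air (median 159.9) and between 109 and 172 CPM after CO2 (median 161). Numbers 3 and 5 of the CO2 group were low, and the other 4 lay within the room-air range. The log2 change was -0.11 (SE 0.12, edgeR, adjusted p = 0.871), and with 1 library left out it ran from -0.16 without room air 5 to -0.03 without CO2 3. In the RTN DHX30 had the higher mean after CO2, 169 ± 21.6 against 157 ± 8.42 CPM, with overlap and a log2 change of 0.11 (SE 0.09, edgeR, adjusted p = 0.999). That value ran from 0.06 without CO2 4 to 0.17 without CO2 3.

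TNFAIP1 in the VRC lay between 19.8 and 28.5 CPM in 7 d room air (median 22.98) and between 18.02 and 22.3 CPM after CO2 (median 20.02). The groups overlapped, and the log2 change of -0.20 (SE 0.10) had an unadjusted p of 0.0620 and an adjusted p of 0.747 by edgeR. With 1 library left out the VRC value ran from -0.24 without room air 3 to -0.14 without room air 4. The NTS value of -0.27 (SE 0.12) is from the starting contrast, in punches of the same goats. Its closeness to the VRC value is therefore not repeated evidence. In the RTN the means were 20.1 ± 0.847 and 20.5 ± 1.26 CPM, a log2 change of 0.02 (SE 0.08, edgeR, adjusted p = 0.999).

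Over the 3 genes the median log2 change at 7 d was -0.55 in the NTS, -0.11 in the VRC and 0.02 in the RTN, beside -0.01, 0.00 and 0.00 over all genes tested. The medians of the NTS and VRC are the DHX30 values, and that of the RTN is the TNFAIP1 value. The 3 genes were chosen on the NTS value. The medians of the VRC and RTN come from libraries that did not choose them, but from punches of the same goats and batch. They are therefore not independent of the choice, and all of these medians are description only.

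At the shorter exposures 0 of the 3 genes passed 0.05 in the VRC or RTN either. Over all genes, 0.013% of 15424 were called in the VRC at 3 h and 0.817% at 24 h (126 genes, or 52 without the shallowest library), and 0.0129% of 15479 in the RTN at 3 h and 0% at 24 h. In the RTN at 24 h, 1001 genes had an unadjusted p under 0.05 and DESeq2 called 9.

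MAN2B1 averaged 76.01 ± 15.4, 68.2 ± 9.34 and 78.04 ± 11.05 CPM in the VRC in 24 h room air, after 3 h and after 24 h of CO2. The log2 changes from room air were -0.16 (SE 0.12, edgeR, adjusted p = 0.593) and 0.03 (SE 0.12, edgeR, adjusted p = 0.957). In the RTN its means were 91.03 ± 9.99, 78.9 ± 8.66 and 91.4 ± 14.9 CPM. The 3 h group was the lowest there, with a log2 change of -0.21 (SE 0.10, unadjusted p = 0.0565, adjusted p = 0.736 by edgeR). From 3 h to 24 h of CO2 MAN2B1 differed by 0.22 in the RTN (SE 0.10, unadjusted p = 0.0476, adjusted p = 0.551 by edgeR) and by 0.19 in the VRC (SE 0.12, adjusted p = 0.816 by edgeR). Within a site both differences share the 3 h libraries, and the sites are punches of the same goats, so these values are not repeated evidence. In the NTS MAN2B1 differed by 0.05 from room air at 3 h and by 0.03 from 3 h to 24 h (SE 0.13 each, not tested). Between these times 0% of genes were called at either site, with 1087 genes of the VRC and 1391 of the RTN at an unadjusted p under 0.05, and DESeq2 called 14 and 25.

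DHX30 showed little in the first batch outside the NTS. In the VRC it averaged 138 ± 20.8, 140.2 ± 17.9 and 130.5 ± 11.1 CPM in 24 h room air, after 3 h and after 24 h, and in the RTN 135 ± 13.01, 147 ± 10.9 and 139.8 ± 24.6 CPM. The log2 changes from room air were 0.03 and -0.08 at the first of these sites and 0.12 and 0.06 at the other, with SE of 0.10 each and adjusted p of 0.933, 0.795, 0.853 and 0.962 by edgeR.

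TNFAIP1 had a mean above room air at all 3 sites and both short times. In the VRC the log2 changes were 0.15 at 3 h (SE 0.13, edgeR, adjusted p = 0.636) and 0.11 at 24 h (SE 0.14, edgeR, adjusted p = 0.784). In the RTN they were 0.05 at 3 h (SE 0.12, edgeR, adjusted p = 0.958) and 0.26 at 24 h (SE 0.12, edgeR, unadjusted p = 0.0380, adjusted p = 0.750). The RTN libraries at 24 h lay between 12.7 and 19.96 CPM in room air (median 17.8) and between 18.4 and 23.5 CPM after CO2 (median 20.9). Those ranges overlapped, with 4 of 6 CO2 libraries above every room-air library. Within a site the 3 h and 24 h values share their room-air libraries, and the sites are punches of the same goats. Their common sign over times and sites is therefore not repeated evidence. The NTS at 24 h is also the contrast that gave TNFAIP1 its symbol.

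Room air allows the sites to be compared without CO2. In 24 h room air MAN2B1 averaged 74.04 CPM in the NTS, 76.01 CPM in the VRC and 91.03 CPM in the RTN. The log2 difference of the VRC from the RTN was -0.26 (SE 0.14, edgeR, adjusted p = 0.287), which did not pass, beside 5.43% of 15566 genes called. The replicate number was assumed to name the same goat at each site, which the labels do not state. With that number as a block 2019 genes were called in place of 845, and MAN2B1 had -0.27 (edgeR, adjusted p = 0.0704). In 7 d room air the VRC and RTN differed by 0.04 (SE 0.12, edgeR, adjusted p = 0.903), with 5.14% of 15180 genes called. The RTN thus stood above the VRC for MAN2B1 in 1 batch of 2, and in neither by the test.

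DHX30 differed between the sites in 24 h room air by less than the SE. The VRC against RTN difference was 0.03 (SE 0.10, edgeR, adjusted p = 0.916) at 24 h and 0.02 (SE 0.08, edgeR, adjusted p = 0.931) at 7 d, and the NTS of 24 h stood 0.05 above the VRC and 0.08 above the RTN (SE 0.10 each, not tested). TNFAIP1 in the VRC differed from the RTN by 0.12 (SE 0.14, edgeR, adjusted p = 0.648) at 24 h and by 0.20 (SE 0.10, edgeR, adjusted p = 0.263) at 7 d, and neither passed. In the NTS of 24 h room air TNFAIP1 differed by -0.20 from the VRC and by -0.07 from the RTN (SE 0.14 each, not tested), and MAN2B1 by -0.04 and -0.30. In the 7 d batch the NTS room-air mean stood above both other sites for MAN2B1 (119 against 82.4 and 80.1 CPM) and for DHX30 (189.9 against 159 and 157 CPM). These NTS libraries are part of the contrast that chose the genes, so their place among the sites describes the choice and was not tested. A difference from the site order in 24 h room air cannot be told apart from batch. In 24 h room air the NTS mean was the lowest of the 3 sites for MAN2B1 and the highest for DHX30 by a margin under its SD.

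Other genes of the same deposited list show the same layout of levels. The named lower entries of the authors' deposited table of 7 d NTS genes are MAN2B1, DHX30, TRAPPC12, ADCK5, NUMA1 and POMK, and 2 more carry only identifiers. TRAPPC12 is a subunit of a tethering complex of vesicle traffic, NUMA1 organises spindle poles, POMK is a kinase that phosphorylates a sugar of dystroglycan's chain, and ADCK5 is a predicted kinase. For 7 of the 8 the 7 d room-air group of the NTS had the highest of the 15 means, and for 3 of the 8 the 7 d CO2 group had the lowest. For 12 of the 14 higher entries the same room-air group had the lowest mean, and for 7 the CO2 group had the highest. Some of these ranks rest on low levels. A lower entry with only an identifier averaged 2.69 CPM in room air (SD 6.49), where the highest mean elsewhere was 2.61 CPM. Of the higher entries, EFCAB12 averaged 0.0112 CPM in room air. Over all 15311 genes tested the room-air group was highest for 7.71% and lowest for 6.63%, but a gene picked for a gap between these groups is more likely to have one at an end.

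ADCK5 averaged 42.5 ± 5.12 CPM in 7 d room air and 28.4 ± 3.24 CPM after CO2, where its other 13 group means ran from 26.1 to 34.6 CPM. TRAPPC12 averaged 40.3 ± 5.66 and 25.4 ± 3.26 CPM, against 28.8 to 37.4 CPM elsewhere, and NUMA1 119 ± 22.9 and 80.4 ± 8.96 CPM, against 90.9 to 114 CPM. POMK averaged 35.7 ± 8.84 and 24.5 ± 1.99 CPM, against 22.8 to 33.7 CPM. Like DHX30, TRAPPC12 and NUMA1 had both groups outside the range of the others, and like MAN2B1, ADCK5 and POMK had only the room-air group outside it. In the VRC and RTN at 7 d none of the 6 named entries passed 0.05 by edgeR (adjusted p of 0.747 or more). Neither did any of all 15179 genes in the VRC or 15326 in the RTN. The lowest adjusted p of any gene by edgeR was 0.747 in the VRC and 0.999 in the RTN.

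**Figure D3:**
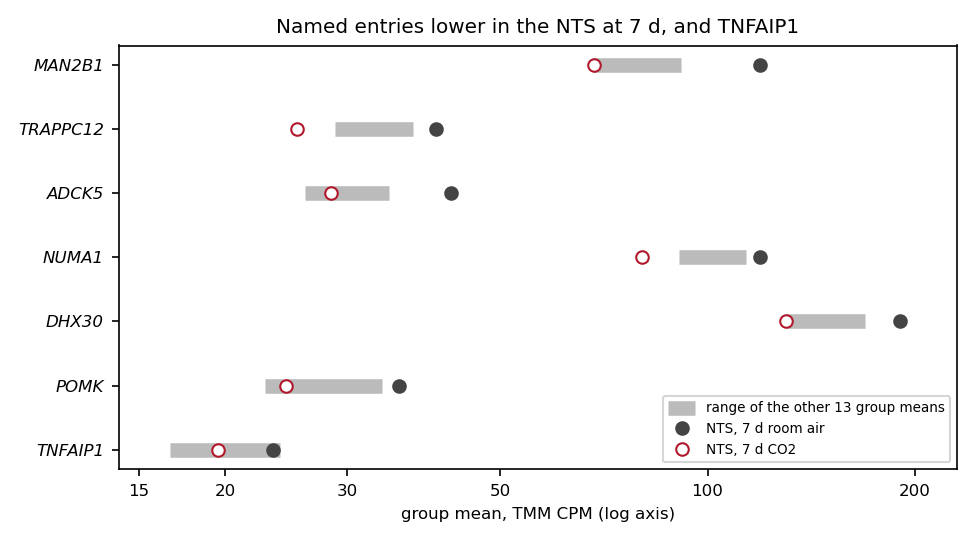
Group means in TMM-scaled CPM (log axis) of the 6 named lower entries of the authors' deposited table of 7 d NTS genes, and of TNFAIP1; grey bars span the means of the other 13 groups, filled points are 7 d room air and open points 7 d CO2 in the NTS. The room-air point lies to the right of the bar for all 6, and within it for TNFAIP1.

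The 3 genes were also compared with each other. Over the 13 groups outside the 7 d NTS, group means of MAN2B1 did not go along with those of DHX30 (Pearson r = -0.11) or TNFAIP1 (r = -0.05), and DHX30 and TNFAIP1 had r = 0.36. Within groups, deviations of the 90 libraries from their group means gave r = 0.49 for MAN2B1 with DHX30, 0.46 for MAN2B1 with TNFAIP1 and 0.32 for DHX30 with TNFAIP1. These are descriptions over libraries that share goats, punches and depth. For both pairs with MAN2B1 the deviations went together and the group means did not, while for DHX30 with TNFAIP1 the values of r were alike.

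Among the 235 other genes with a symbol, those most like each member were sought by the same measures. For DHX30 the group means were most like those of POMK (r = 0.93), ADCK5 (r = 0.75) and RHBDF1 (r = 0.74). POMK and ADCK5 also stand in the deposited 7 d NTS list, which has 22 entries with members and identifiers included. The groups used leave out the 7 d NTS but span both batches. Likeness of group means therefore cannot be told apart from a shared difference between batches. For DHX30 library deviations are given next. Its library deviations went most with TRAPPC12 (r = 0.48), RHBDF1 (r = 0.45) and NUMA1 (r = 0.40). TRAPPC12 and NUMA1 stand in the deposited 7 d NTS list too, and the deviations include the 7 d NTS libraries. The share of that list among the 235 genes was not set beside these names, so their place in it is description only. MAN2B1 was most like AIF1, a microglial gene (r = 0.63), HOATZ (r = 0.60) and SHOX2 (r = 0.54) by group means, and like EFCAB14 (r = 0.52), TRAPPC12 (r = 0.49) and GSN (r = 0.43) by deviations. TNFAIP1 was most like GSN (r = 0.78), ASB7 (r = 0.72) and CD1D (r = 0.70) by group means, and like THBD, the endothelial thrombomodulin (r = 0.62), IVD (r = 0.56) and EFCAB14 (r = 0.53) by deviations. With Spearman's rho in place of r the first gene by group means stayed POMK for DHX30 (0.95), and became HOATZ for MAN2B1 (0.73) and CD1D for TNFAIP1 (0.71). The median r over the 235 genes ran from -0.29 to 0.08, and all of them carry a symbol because the authors picked them on these libraries.

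Lists of related genes could hardly be read. Of 42 lysosomal hydrolases and their regulators, 29 genes of mitochondrial RNA granules and 23 adaptors and targets of cullin 3 and RhoA, 1 each carries a linked symbol, and each is the member itself. Whether other lysosomal, mitochondrial or ubiquitin ligase genes differed was therefore not analysed here.

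Markers of cell types that carry a symbol were set beside the NTS values at 7 d. Of 10 endothelial markers 6 are linked, and their summed level lay between 46.98 and 63.7 CPM in room air and between 32.1 and 51.6 CPM after CO2. ACVRL1, a receptor of the TGF-beta family on endothelium, averaged 18.1 ± 2.51 and 11.6 ± 2.59 CPM (log2 difference -0.64, SE 0.16, edgeR, adjusted p = 0.293). NOS3, the endothelial nitric oxide synthase, averaged 26.6 ± 5.43 and 19.1 ± 4.50 CPM (log2 difference -0.48, SE 0.17, edgeR, adjusted p = 0.527). The other 4 were lower in level and did not share 1 direction. ACKR1, a chemokine receptor of venules, averaged 5.10 ± 1.15 and 6.59 ± 3.90 CPM (log2 difference 0.33, SE 0.29, edgeR, adjusted p = 0.774), and the transcription factor FOXQ1 0.705 ± 0.477 and 0.761 ± 0.345 CPM (0.07, SE 0.45, edgeR, adjusted p = 0.972). THBD averaged 4.96 ± 1.15 and 4.30 ± 1.01 CPM (-0.19, SE 0.20, edgeR, adjusted p = 0.807), and MEOX2, too low for the fit, 0.313 ± 0.324 and 0.152 ± 0.115 CPM. The 3 of 7 linked microglial and myeloid markers summed to 63.9 to 135 CPM in room air and 72.9 to 105 CPM after CO2, and the 2 of 7 of oligodendrocytes to 13.01 to 95.3 and 33.2 to 86.1 CPM. The 5 of 8 neuronal markers summed to 7.71 to 159 (median 44.8) and 7.79 to 102 CPM (median 12.9). PRPH had the highest level of them, 51.3 ± 56.4 and 27.4 ± 35.8 CPM (log2 difference -0.93, SE 1.12, edgeR, adjusted p = 0.833). GRP and SHOX2 also had a lower mean after CO2, and NPFF and GABRB2 a higher one. The 2 of 5 of blood summed to 10.8 to 17.8 and 10.4 to 17.2 CPM, and the 1 of 4 of ependyma and choroid plexus lay at 0.469 to 6.40 and 0.776 to 22.98 CPM. None of the 5 astrocyte markers is linked, and no linked marker had a group mean below that of MEOX2 after CO2. The part of these markers in the values of MAN2B1, DHX30 and TNFAIP1 was not tested.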

How the data were processed

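The authors deposited raw counts per Ensembl goat gene for 90 libraries (SMART-Seq v4 cDNA, Nextera XT). edgeR 4.6, featureCounts 2.0.6, STAR 2.7.10b and fastp 0.24.0 are named in the submitters' processing notes; the genome build was not given in the sources used here. In the authors' deposited tables are log2 fold changes, log2 mean abundances, a likelihood ratio score and p-values, per the file headers; all 342 entries have an adjusted p under 0.05. In R 4.3.3, edgeR 4.0.16 linked symbols in a fit over all libraries (17730 genes, minimum count 5, tolerance 1e-06), which matched 341 entries to 1 gene each; the other entry is an identifier and was matched to itself. The 3 members were matched with a difference of 0.

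Tests used edgeR quasi-likelihood fits (TMM, filterByExpr, robust) on the libraries of 1 site and batch, or of room air across sites, with Benjamini-Hochberg adjustment over all genes; 10 of 16 comparisons were tested for the members and 6 that use NTS libraries only described. The design had planned tests for 5 of those 6, which were dropped because TNFAIP1 was linked through the NTS at 24 h. The fits were tested on simulated data. Log2 levels used an offset of 0.5 CPM. Goats are the replicates, numbered within an exposure. Deviations of same-numbered libraries correlated at 0.143 to 0.528 between the VRC and RTN in 24 h room air, where all 6 pairs exceeded 0.1 and the number was taken to pair them, and in 4 of 6 pairs at 7 d. They also correlated in all 6 pairs between the NTS libraries of 3 h and room air (0.307 to 0.739), which are different goats.

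Members and gene lists were chosen with earlier results of these data known. Named genes are the members, the lower entries of the deposited 7 d NTS table, the entries at its limits, the 3 symbols most like each member and linked list members. The alternatives were RLE factors, DESeq2 1.42.0, tests without a filter, the fit over all libraries, the replicate block and leaving libraries out. 0 columns were left out. Sequences are not used here.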

Additional observations from a re-analysis of the deposited data

Results flagged for a closer look

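In the groups of 6 goats, 2 of the 45 combinations of gene and group held a library far from the other 5, by a gap to the nearest library, relative to the group's range, above Dixon's 95% critical value; chance alone gives about 1 in 20, or 2.25 of 45. MAN2B1 in number 1 of the VRC after 7 d of CO2 stood at 105 CPM, where the next library was at 77.4 CPM. Without that library the log2 change of MAN2B1 in the VRC at 7 d was -0.18 in place of -0.07, and it did not pass 0.05. TNFAIP1 in number 4 of the VRC in 7 d room air stood at 28.5 CPM, with the next at 23.1 CPM. Without it the log2 change of TNFAIP1 in the VRC at 7 d was -0.14 in place of -0.20. No NTS library of the 3 genes met this limit.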

How the results depend on the processing

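In all 435 values recomputed under the alternatives, tested values of MAN2B1, DHX30 and TNFAIP1 kept their side of the threshold. Untested NTS values moved by less than the SD between replicates. That SD was 0.22, 0.18 and 0.19 log2 units for the 3 genes in this order, above the SE of each NTS difference. It is a wide limit, within which small values could change sign. The lowest main adjusted p by edgeR was 0.263, so tested values began far from 0.05. In the 10 tested comparisons 0 of 228 recomputed values passed 0.05, and the lowest adjusted p was 0.0704, for MAN2B1 between the VRC and RTN in 24 h room air with the replicate block. Leaving out each NTS library at 7 d in turn gave log2 changes of -0.87 to -0.74 for MAN2B1, -0.59 to -0.51 for DHX30 and -0.33 to -0.20 for TNFAIP1. For TNFAIP1 in the NTS at 24 h the range was 0.46 to 0.61. In the NTS at 24 h the small value of MAN2B1 changed sign if room air 6 was left out (-0.01) and that of DHX30 if CO2 5 was left out (-0.01); at 3 h MAN2B1 did so without room air 6 (-0.04). At 7 d the values of MAN2B1 in the VRC and RTN, and of TNFAIP1 in the RTN, lie within 1 SE of 0 and reached 0.02, 0.02 and -0.01 with 1 library left out.

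The counts of genes called, which serve as background, moved more, and the causes were not tested. DESeq2 called 121 genes in the VRC at 3 h against 2 by edgeR, 274 at 24 h against 126, 14 between these times against 0 and 2 at 7 d against 0. In the RTN it called 17 at 3 h against 2, 9 at 24 h against 0, 25 between these times against 0 and 2 at 7 d against 0. Between the VRC and RTN in room air it called 1425 genes at 24 h against 845 and 1373 at 7 d against 780. The likelihood ratio test over all libraries called 15 in the VRC at 3 h, and 3 in the VRC and 6 in the RTN between 3 h and 24 h. With the replicate block 95 genes were called in the VRC at 3 h, 2019 between the VRC and RTN in 24 h room air and 1677 in 7 d room air; the block changed no call of the 3 genes. Without the shallowest library, VRC 24 h CO2 number 4 (5.46 M counts), 52 genes were called at 24 h, an alternative chosen after seeing the data, as was leaving out the 5 NTS libraries, whose principal component was chosen after several had been tried. At these depths counting error is below the spread between goats in most groups, and 6 goats a group limit what can be detected.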
